A study of Mus musculus with 15 samples.

Results

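The 41 DNA replication genes described here encode the proteins that license replication origins, unwind and copy DNA at the fork and supply its building blocks. They were taken by symbol from the authors' deposited table, which lists 22063 genes, and all 41 were present and passed the filter on low values. The study measured RNA of the mouse colon in 15 libraries, 5 in each of 3 groups. The WMW-H group were mice of the tumour model given WMW-H, a preparation of the herbal formula Wumei Wan named in the study's title; the sources used here give neither its dose nor the meaning of "-H". The AOM/DSS group were mice in which azoxymethane, a carcinogen, and dextran sulfate sodium, which injures the colon lining, were used to raise colorectal tumours. The control group had treatment labelled Control. All groups were C57BL/6 mice of WT genotype, and their age and the times of treatment and sampling are not given in the sources used here. The labels call the libraries replicates without saying that they came from separate animals, so the p-values measure only the spread between these libraries, which may be technical.

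In every dividing cell, origins are first licensed by loading the ring-shaped MCM helicase with the origin recognition complex, Cdc6 and Cdt1. Cdc45 and the GINS complex then turn the ring into the active helicase, primase and polymerase alpha lay down primers, and polymerases delta and epsilon, held by the Pcna clamp, copy the strands. Many of these genes are classical targets of the E2F transcription factors, and in the colon the cells that use them are mainly the dividing cells of the crypt, which renew the epithelium.

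Letters of 4 promoter motifs were looked up in the RefSeq promoter windows of assembly GRCm38.p6, which run from 250 bases before to 50 after a gene's start, on both strands. The E2F letters TTTCCCGC, TTTCGCGC, TTTGCCGC or TTTGGCGC stood in 13 of 40 windows of the 34 replication genes that matched (32.5%), and in 744 of all 32851 windows (2.26%). The GC box GGGCGG stood in 72.5% of these windows and in 35.66% of all, CCAAT in 60.0% and in 37.41%, and the CHR letters TTTGAA in 12.5% and in 17.89%. The promoters below, the 200 bases before the start and 5′ to 3′ on the gene's strand, carry E2F letters in genes that were called in opposite directions in the same libraries. On the deposited scale Mcm5, Mcm7 and Cdc6 were called higher in AOM/DSS than in control libraries and lower in WMW-H than in AOM/DSS libraries, and Mcm6 and Pola1 were called the other way in both comparisons. The first change of Mcm5 turned sign with size factors, quantile normalization and the correction for GC content described below. In these settings the first call of Cdc6 ended. The second change of Pola1 turned sign under that correction only. Capitals mark the E2F letters, read on the gene's strand or its complement. In Mcm5 and in Mcm6 a pair of them overlap each other.
Mcm5, chr8:75109309-75109508, plus strand: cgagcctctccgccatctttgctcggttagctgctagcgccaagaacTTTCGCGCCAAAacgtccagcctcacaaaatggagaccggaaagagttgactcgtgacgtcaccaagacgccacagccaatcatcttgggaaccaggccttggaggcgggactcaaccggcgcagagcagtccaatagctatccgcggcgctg
Mcm7, chr5:138171884-138172083, minus strand: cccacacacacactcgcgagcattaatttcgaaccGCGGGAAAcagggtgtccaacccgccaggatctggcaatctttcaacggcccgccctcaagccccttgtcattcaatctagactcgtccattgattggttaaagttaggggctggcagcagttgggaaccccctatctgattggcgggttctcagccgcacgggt
Cdc6, chr11:98907951-98908150, plus strand: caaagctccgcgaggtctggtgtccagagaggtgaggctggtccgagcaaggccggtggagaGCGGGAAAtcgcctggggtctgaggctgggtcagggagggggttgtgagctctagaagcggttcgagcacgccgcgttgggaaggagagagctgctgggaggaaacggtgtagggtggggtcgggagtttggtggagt
Mcm6, chr1:128359706-128359905, minus strand: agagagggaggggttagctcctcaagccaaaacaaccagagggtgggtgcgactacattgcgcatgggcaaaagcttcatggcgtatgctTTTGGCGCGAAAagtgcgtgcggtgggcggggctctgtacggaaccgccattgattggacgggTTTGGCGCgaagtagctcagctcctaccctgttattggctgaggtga
Pola1, chrX:93632156-93632355, minus strand: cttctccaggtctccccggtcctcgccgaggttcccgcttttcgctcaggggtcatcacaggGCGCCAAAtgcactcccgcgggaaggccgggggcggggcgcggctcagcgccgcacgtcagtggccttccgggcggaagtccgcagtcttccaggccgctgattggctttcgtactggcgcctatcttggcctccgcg
The E2F letters began 153 bases before the start in Mcm5, 165 in Mcm7, 138 in Cdc6 and Pola1, and 110 and 47 in Mcm6. The 13 genes with a match were Cdc6, Cdt1, Gins3, Lig1, Mcm3, Mcm5, Mcm6, Mcm7, Orc1, Pola1, Pold1, Rfc3 and Uhrf1. Of these, 5 were called higher, 3 lower and 5 neither in AOM/DSS versus control, and 2 were called higher, 5 lower and 6 neither in WMW-H versus AOM/DSS. Over all tested genes the shares were 45.5% higher and 20.6% lower in the first comparison and 25.9% and 40.9% in the second. The counts lie below or near these shares, so they are no result about genes with the letters. A letter match is a description of the window and not a bound site, and genes with it were called in both directions, as were all tested genes.

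The libraries held 16318000 to 21088000 fragments, as read from the steps of their low values, and 16377 to 16692 genes above 0. WMW-H replicate 3 stood apart: its pairs with the other WMW-H libraries differed by 20.8 to 26.3 times counting noise (chi-square per degree of freedom), against 2.405 to 3.97 for all other pairs within a group. It was the lowest of the 5 WMW-H libraries for 20 replication genes and the highest for 6. Markers of the epithelium, which the labels give as the cell type, summed to 7252 to 7678 FPKM (fragments scaled by transcript length and library total) in WMW-H libraries, 8514 to 8649 in AOM/DSS libraries and 8630 to 8733 in control libraries, over 10 genes. In WMW-H versus control 2 of the 10 (Epcam and Cdh1) were higher without overlap and 8 lower. Over all tested genes these shares were 25.3% and 17%. Crypt markers summed to 93.5 to 97.5 FPKM in WMW-H libraries, 152.5 to 159 in AOM/DSS libraries and 68.1 to 72.9 in control libraries, over 8 genes. The libraries also held transcripts on marker lists of the pancreas, the seminal vesicle and Paneth cells. The tissue these came from was not tested. The 24 pancreas markers summed to 17350 to 17660 FPKM in WMW-H, 11070 to 11310 in AOM/DSS and 36870 to 37740 in control libraries, with Ins1 and Ins2, the insulin genes, listed at 0 in all AOM/DSS libraries. Of these sums Zg16 gave 3281 to 3438 FPKM in WMW-H, 2688 to 2748 in AOM/DSS and 3044 to 3198 in control libraries. Zg16 was thus higher in WMW-H than in control libraries without overlap, while 21 of the 24 were lower without overlap (17% of all tested genes). The 10 seminal vesicle markers in the table summed to 52.3 to 67.7 FPKM in WMW-H, 2869 to 3029 in AOM/DSS and 30.3 to 43.6 in control libraries, with Sva listed at 0 in all WMW-H libraries and Pate4 in all control libraries. Spink1 alone gave 49.458 to 63.559 FPKM in WMW-H, 68.723 to 87 in AOM/DSS and 28.027 to 41.005 in control libraries. It thus made up most of the sum in WMW-H and control libraries. Each other marker of this list read at most 1.849 FPKM in WMW-H and 1.445 in control libraries. The 14 Paneth cell markers summed to 425 to 464 FPKM in WMW-H, 1258 to 1343 in AOM/DSS and 75.9 to 79.1 in control libraries, with Defa26 listed at 0 in all control libraries. The 8 B cell markers, from another dividing cell type of the colon, summed to 12.6 to 15.1 FPKM in WMW-H, 28.3 to 31.0 in AOM/DSS and 29.0 to 34.5 in control libraries. The 8 myeloid markers summed to 343 to 369 FPKM in WMW-H, 452 to 464 in AOM/DSS and 165 to 179 in control libraries, and the 8 fibroblast markers to 398 to 431 in WMW-H, 347 to 368 in AOM/DSS and 216 to 226 in control libraries. Of the 7 fibroblast markers tested, 2 were higher and 1 lower without overlap in WMW-H versus AOM/DSS (18.8% and 32.3% of all tested genes). In AOM/DSS versus control 4 were higher and 2 lower (36.9% and 16%). The 6 plasma cell markers summed to 613 to 678 FPKM in WMW-H, 493 to 530 in AOM/DSS and 809 to 829 in control libraries, and the 8 T cell markers to 22.3 to 25.4 in WMW-H, 25.5 to 30.7 in AOM/DSS and 31.9 to 35.7 in control libraries. Jchain carried the higher plasma cell sum of WMW-H (335 to 387 FPKM) over AOM/DSS libraries (179 to 203). It alone of the 6 was higher without overlap in that comparison, and 3 were lower (18.8% and 32.3% of all tested genes). Of the 8 T cell markers, Cd4 went against the sum, at 5.191 to 6.603 FPKM in WMW-H, 5.518 to 7.146 in AOM/DSS and 3.694 to 4.597 in control libraries. In WMW-H versus control it alone was higher without overlap and 5 were lower (25.3% and 17% of all tested genes). The sums of the 8 smooth muscle markers overlapped between all groups, at 2114 to 2253 FPKM, but single markers did not stay level. In WMW-H versus AOM/DSS 3 of the 8 were higher and 4 lower without overlap (18.8% and 32.3% of all tested genes). The part of these cell types and tissues in the results below was not tested, except that the library total was also taken without the pancreas, seminal vesicle and Paneth markers. This is named the total without other-tissue markers below, and it also leaves out any colon RNA of those genes.

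The replication genes did not move as a block in any comparison. In AOM/DSS versus control, 14 of the 41 were called higher, against 45.5% of all tested genes, and 7 were called lower, against 20.6%. In WMW-H versus AOM/DSS, 9 were called higher (25.9% of all tested genes) and 12 lower (40.9%). In WMW-H versus control, 12 were called higher (35.4% of all tested genes) and 11 lower (24.1%). A call means an adjusted p under 0.05 in limma over 12917 tested genes, on the scale of log2(FPKM + 1), which understates the change of low genes. On the deposited scale these counts lie below or near the share of all genes called, so they are no result about the replication genes as a set. The 3 comparisons share libraries pairwise, so a direction that turns between them is partly fixed by the libraries in common. In RNA from whole tissue, a lower level can come from fewer dividing cells or from less RNA per cell, and these cannot be told apart.

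The changes were small. Folds of (FPKM + 1) ran from 0.745 to 1.34 over the 41 genes in AOM/DSS versus control, from 0.785 to 1.64 in WMW-H versus AOM/DSS and from 0.818 to 1.51 in WMW-H versus control. The median log2 change was 0.052, -0.028 and -0.002 in these comparisons, beside 0.117, -0.075 and 0.05 over all tested genes. The median size of the change regardless of sign was 0.164, 0.174 and 0.167, beside 0.229, 0.241 and 0.192 over all genes. Summed over the 41 genes, the level was 528 to 567 FPKM in WMW-H libraries, 532 to 546 in AOM/DSS libraries and 528 to 538 in control libraries, so the groups overlapped. The groups did not overlap for 10 genes higher and 6 lower in AOM/DSS versus control (36.9% and 16% of all genes), for 4 higher and 10 lower in WMW-H versus AOM/DSS (18.8% and 32.3%), and for 7 higher and 7 lower in WMW-H versus control (25.3% and 17%).

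**Figure D1:**
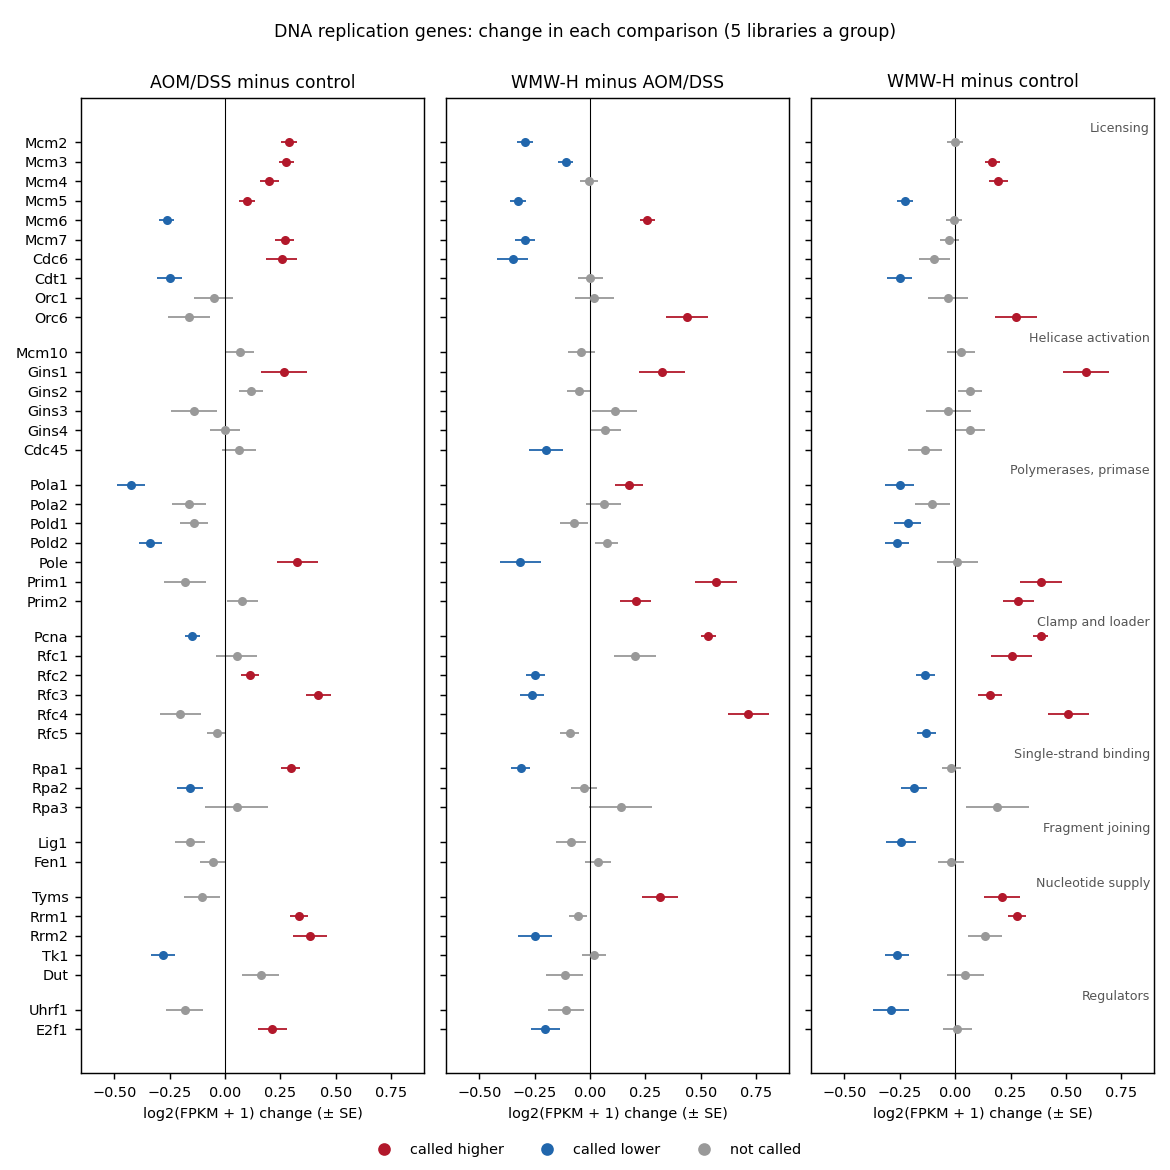
Log2 change of the 41 replication genes in 3 comparisons (horizontal axis, log2 of FPKM + 1, with bars of 1 SE from limma; 5 libraries a group), ordered by role down the page. Red points were called higher, blue points lower and grey points neither. Within most roles, points lie on both sides of 0.

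Scaling bears on these counts. With median-of-ratios size factors the called genes of AOM/DSS versus control were 8 higher and 17 lower, and with quantile normalization 7 higher and 18 lower. Of all tested genes, 30.4% were then called higher and 30.8% lower with size factors, and 29.1% and 32.3% with quantile normalization, so in these settings the replication genes' lower calls were above that share and their higher calls below it. The 10 lower calls gained with size factors were Fen1, Lig1, Orc6, Pola2, Pold1, Prim1, Rfc4, Rfc5, Tyms and Uhrf1, and quantile normalization gained these and Gins3. The higher share of all calls in that comparison was 68.9% on the deposited scale, 49.7% with size factors, 47.5% with quantile normalization and 51% after correction for GC content. In WMW-H versus AOM/DSS it was 38.8%, 48.6%, 49.6% and 49.2% in the same settings, and in WMW-H versus control 59.5%, 50.1%, 48% and 50.2%. Without WMW-H replicate 3 the counts were 15 higher and 11 lower, 9 and 13, and 11 and 12 in the 3 comparisons. Calls that held in all 26 alternatives were Mcm2, Mcm3, Rfc3, Rpa1, Rrm1 and Rrm2 (higher) and Cdt1, Mcm6, Pcna, Pola1, Pold2 and Tk1 (lower) in AOM/DSS versus control. In WMW-H versus AOM/DSS they were Mcm6, Orc6, Pcna, Prim1, Rfc4 and Tyms (higher) and Cdc6, Mcm5, Mcm7, Rfc2, Rfc3 and Rpa1 (lower). In WMW-H versus control they were Gins1, Mcm3, Pcna and Rfc4 (higher) and Lig1, Mcm5, Pola1, Pold2, Rfc2, Rfc5, Rpa2, Tk1 and Uhrf1 (lower). Mcm10, Pola2, Gins2, Gins3, Gins4, Orc1, Rpa3, Fen1 and Dut passed the threshold in none of the 3 comparisons on the deposited scale with all libraries.

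Licensing genes comprise the 6 subunits of the MCM ring, Orc1 and Orc6 of the origin recognition complex, and the loaders Cdc6 and Cdt1. Of these 10, 6 rose and 2 fell in AOM/DSS versus control, and 2 rose and 5 fell in WMW-H versus AOM/DSS. Over all tested genes the shares were 45.5% and 20.6% in the first comparison and 25.9% and 40.9% in the second, and under the GC correction described further on the counts of these 10 became 4 and 2, and 3 and 4. The MCM subunits, which assemble in equal numbers, differed in direction at the RNA level. Mcm3 read 17.5, 17.4, 16.7, 17.4 and 17.95 FPKM in the 5 WMW-H libraries, 19.8, 18.5, 18.8, 18.8 and 18.3 in the 5 AOM/DSS libraries and 15.1, 14.7, 15.6, 16.1 and 15.4 in the 5 control libraries. The 3 groups did not overlap for Mcm3, with the AOM/DSS libraries highest and the control libraries lowest. Mcm3 rose by 0.28 ± 0.03 (log2, SE) in AOM/DSS versus control (limma adjusted p = 1.52e-06), fell by 0.11 ± 0.03 in WMW-H versus AOM/DSS (adjusted p = 0.00839), and rose by 0.17 ± 0.03 in WMW-H versus control (adjusted p = 0.000413). The call in WMW-H versus AOM/DSS ended with size factors, quantile normalization and the correction for GC content, and under that correction its sign turned (0.04).

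In the 5 WMW-H libraries Mcm6 stood at 33.4, 32.5, 31.0, 32.4 and 33.3 FPKM, in the 5 AOM/DSS libraries at 27.9, 26.8, 26.9, 25.4 and 28.1 and in the 5 control libraries at 33.9, 31.2, 31.9, 32.1 and 34.3. Mcm6 thus stood below both other groups in every AOM/DSS library, and the WMW-H and control libraries overlapped. Mcm6 fell by 0.26 ± 0.04 (log2, SE) in AOM/DSS versus control (limma adjusted p = 4.31e-06) and rose by 0.26 ± 0.04 in WMW-H versus AOM/DSS (adjusted p = 5.84e-06), while WMW-H and control differed by -0.01 (limma adjusted p = 0.888). Under GC correction that last difference was -0.17 and was called (adjusted p = 0.000376). The level of Mcm5 was 19.3, 19.9, 18.5, 20.3 and 20.3 FPKM in WMW-H libraries, 23.6, 25.4, 25.5, 24.4 and 25.5 in AOM/DSS libraries and 21.7, 23.1, 23.1, 23.7 and 24.2 in control libraries. Every WMW-H library was below every AOM/DSS and every control library, and AOM/DSS and control libraries overlapped. Mcm5 fell by 0.33 ± 0.04 (log2, SE) in WMW-H versus AOM/DSS (limma adjusted p = 6.51e-07) and by 0.23 ± 0.04 in WMW-H versus control (adjusted p = 5.05e-05). Its difference of 0.10 in AOM/DSS versus control was called on the deposited scale but had the opposite sign with size factors, quantile normalization and GC correction, and without any 1 of AOM/DSS replicates 2, 3 or 5 or of control replicate 1 it was 0.08 to 0.09 (limma adjusted p = 0.0551 to 0.0763). Mcm2 averaged 15.1 ± 0.302 FPKM in WMW-H, 18.7 ± 0.518 in AOM/DSS and 15.1 ± 0.785 in control libraries (here and below, mean ± SD, n = 5 each), and Mcm7 29.1 ± 1.13 FPKM in WMW-H, 35.9 ± 1.02 in AOM/DSS and 29.7 ± 2.25 in control libraries. Both rose in AOM/DSS versus control (log2 ± SE: 0.29 ± 0.04, adjusted p = 2.18e-06 and 0.27 ± 0.04, adjusted p = 4.57e-05, limma). Both fell in WMW-H versus AOM/DSS (log2 ± SE: -0.29 ± 0.04, adjusted p = 2.09e-06 and -0.30 ± 0.04, adjusted p = 1.69e-05, limma). Under GC correction the Mcm2 fall was -0.05 (limma adjusted p = 0.226) and no longer passed, and the Mcm7 rise missed the threshold only under GC correction with the replicate number as a block (adjusted p = 0.0634). Mcm4 averaged 12.4 ± 0.409 FPKM in WMW-H, 12.5 ± 0.706 in AOM/DSS and 10.7 ± 0.374 in control libraries, and was called higher against control in both AOM/DSS and WMW-H libraries, where the second call ended under GC correction and the first with size factors and quantile normalization.

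The ratio of subunits within a library does not depend on the library's total. Mcm6 made up 25.8 ± 0.414% of the summed FPKM of Mcm2 to Mcm7 in WMW-H libraries, 19.6 ± 0.664% in AOM/DSS libraries and 25.8 ± 1.22% in control libraries (SD, n = 5 each). Its highest share among AOM/DSS libraries was 20.35% and its lowest elsewhere 24.55%. Mcm5 took 15.6 ± 0.43% in WMW-H, 18.04 ± 0.487% in AOM/DSS and 18.3 ± 0.521% in control libraries. Mcm7 took 23.1 ± 0.579% in WMW-H, 26.1 ± 0.448% in AOM/DSS and 23.4 ± 1.32% in control libraries. Shares add up to a fixed total, so they show that the subunits changed unequally and not which of them stayed level. Mcm4 took 9.84 ± 0.490% in WMW-H, 9.04 ± 0.421% in AOM/DSS and 8.45 ± 0.276% in control libraries. Transcripts of Mcm4 hold 45.5% G and C, those of Mcm6 47.3% and those of Mcm2, Mcm3, Mcm5 and Mcm7 between 51.9% and 55.5%. In AOM/DSS versus control Mcm4 rose (0.20) and Mcm6 fell (-0.26). In WMW-H versus AOM/DSS Mcm6 rose (0.26), Mcm4 differed by -0.01, and Mcm2, Mcm3, Mcm5 and Mcm7 fell. The part of base composition in the shares was not tested further.

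**Figure D2:**
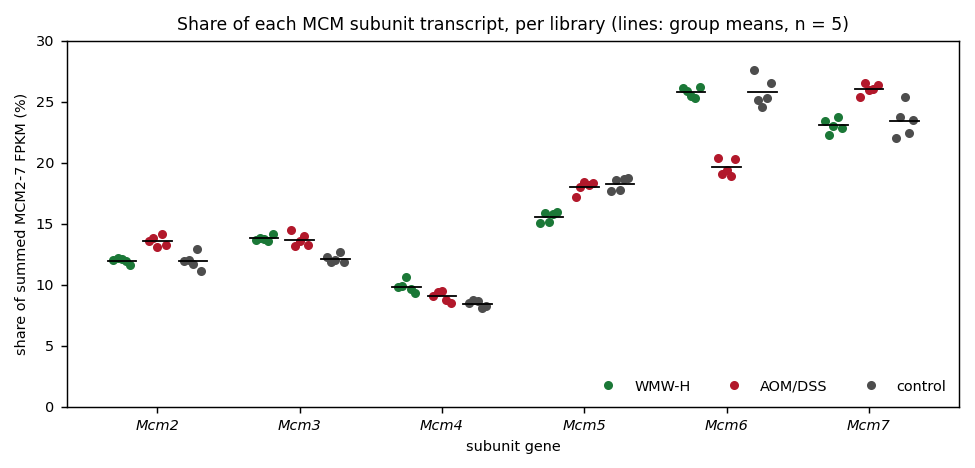
Share of each MCM subunit in the summed FPKM of Mcm2 to Mcm7 (vertical axis, percent), 1 point per library, for WMW-H, AOM/DSS and control libraries, with a line at each group's mean (n = 5). Mcm6 lies between 18.9% and 20.35% in AOM/DSS libraries and between 24.55% and 27.6% in the others.

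Cdt1 read 10.7, 10.7, 10.0, 11.3 and 11.9 FPKM in the 5 WMW-H libraries, 11.2, 11.6, 10.9, 9.92 and 10.9 in the 5 AOM/DSS libraries and 12.4, 13.9, 12.2, 14.6 and 12.8 in the 5 control libraries. Every control library was above every WMW-H and AOM/DSS library. Cdt1, which brings the MCM ring to origins, fell by 0.25 ± 0.06 (log2, SE) in AOM/DSS versus control (limma adjusted p = 0.000899) and by 0.25 ± 0.06 in WMW-H versus control (adjusted p = 0.00112), the second of which ended under GC correction (-0.13, limma adjusted p = 0.0564). Between WMW-H and AOM/DSS libraries Cdt1 differed by 0.00 on the deposited scale and by 0.31 under GC correction, where it was called (limma adjusted p = 0.000193). In the 5 WMW-H libraries Orc6 stood at 6.30, 7.58, 7.43, 7.59 and 8.84 FPKM, in the 5 AOM/DSS libraries at 5.30, 4.92, 4.54, 6.78 and 5.09 and in the 5 control libraries at 5.10, 6.51, 6.65, 6.60 and 5.44. WMW-H and AOM/DSS libraries overlapped through 1 AOM/DSS library at 6.78 and 1 WMW-H library at 6.30 FPKM. Control libraries overlapped both of these groups. Orc6, the smallest subunit of the origin complex, rose by 0.44 ± 0.10 (log2, SE) in WMW-H versus AOM/DSS (limma adjusted p = 0.000674). Its call of 0.28 in WMW-H versus control ended with quantile normalization, GC correction and the total without other-tissue markers, and without any 1 of WMW-H replicate 5 or of control replicates 1 or 5 it was 0.22 to 0.24 (limma adjusted p = 0.0509 to 0.0592). Vps35, which overlaps 171 exonic bases of Orc6 on the opposite strand, averaged 34.5 FPKM in WMW-H, 20.5 in AOM/DSS and 29.7 in control libraries and rose by 0.73 in WMW-H versus AOM/DSS (limma adjusted p = 1.57e-10). The sources used here do not say whether reads were counted by strand, so reads of the overlap cannot be told apart. Cdc6, the other loader, averaged 2.72 ± 0.342 FPKM in WMW-H, 3.73 ± 0.149 in AOM/DSS and 2.97 ± 0.312 in control libraries. It fell by 0.35 ± 0.07 (log2, SE) in WMW-H versus AOM/DSS (limma adjusted p = 0.000278), with no overlap between these groups, and rose by 0.26 ± 0.07 in AOM/DSS versus control (adjusted p = 0.00373), a call that ended with size factors, quantile normalization and GC correction. Orc1, the largest subunit of the origin complex, averaged 2.95 ± 0.281 FPKM in WMW-H, 2.90 ± 0.326 in AOM/DSS and 3.06 ± 0.549 in control libraries and was called in no comparison.

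Helicase activation is the work of Cdc45, the 4 GINS subunits and Mcm10. Gins1 alone of the 6 was called in AOM/DSS versus control. The level of Gins1 was 4.18, 3.91, 3.49, 5.19 and 3.54 FPKM in WMW-H libraries, 3.40, 3.09, 3.52, 2.41 and 2.74 in AOM/DSS libraries and 2.61, 2.11, 2.87, 2.26 and 1.92 in control libraries. Every WMW-H library was above every control library, while AOM/DSS libraries overlapped both. Gins1 rose by 0.59 ± 0.10 (log2, SE) in WMW-H versus control (limma adjusted p = 0.000103) and by 0.33 ± 0.10 in WMW-H versus AOM/DSS (adjusted p = 0.0102). Its rise of 0.27 in AOM/DSS versus control (limma adjusted p = 0.0306) ended in 10 of the 26 alternatives, among them size factors, quantile normalization and both forms of GC correction, and without any 1 of AOM/DSS replicates 1, 2 or 3 or of control replicates 2, 4 or 5 it was 0.22 to 0.26 (limma adjusted p = 0.0551 to 0.0839). The call against AOM/DSS ended under GC correction (0.24, limma adjusted p = 0.0517). Cdc45 averaged 4.56 ± 0.342 FPKM in WMW-H, 5.39 ± 0.583 in AOM/DSS and 5.13 ± 0.658 in control libraries. It fell by 0.20 ± 0.08 (log2, SE) in WMW-H versus AOM/DSS (limma adjusted p = 0.0325), which ended in 10 alternatives; without any 1 of WMW-H replicates 1, 3 or 4 or of AOM/DSS replicates 3 or 5 it was -0.19 to -0.15 (limma adjusted p = 0.0553 to 0.0994). The other GINS subunits and Mcm10 were not called on the deposited scale. Gins2 averaged 10.3 ± 0.528 FPKM in WMW-H, 10.7 ± 0.434 in AOM/DSS and 9.82 ± 0.865 in control libraries. Gins3 averaged 1.26 ± 0.263 FPKM in WMW-H, 1.09 ± 0.242 in AOM/DSS and 1.31 ± 0.305 in control libraries. Gins4 averaged 11.6 ± 0.826 FPKM in WMW-H, 11.1 ± 1.19 in AOM/DSS and 11.0 ± 0.818 in control libraries. Mcm10 averaged 5.17 ± 0.380 FPKM in WMW-H, 5.35 ± 0.502 in AOM/DSS and 5.05 ± 0.3002 in control libraries. Gins4, the replication gene with only 1 annotated transcript, stood on 239 to 316 fragments per library. Gins2 shares up to 2758 exonic bases with the opposite-strand gene Gse1, which fell by 0.46 in WMW-H versus AOM/DSS, so its level is uncertain.

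Polymerases and primase moved in both directions. Pola1 and Pold2, the catalytic subunit of polymerase alpha and an accessory subunit of polymerase delta, fell in AOM/DSS versus control, and Pole, the catalytic subunit of polymerase epsilon, rose. Pola1 read 2.30, 2.08, 2.06, 1.78 and 2.08 FPKM in the 5 WMW-H libraries, 1.85, 1.45, 1.64, 1.92 and 1.70 in the 5 AOM/DSS libraries and 2.90, 2.67, 2.47, 2.68 and 2.48 in the 5 control libraries. Every AOM/DSS and every WMW-H library was below every control library. Pola1 fell by 0.43 ± 0.06 (log2, SE) in AOM/DSS versus control (limma adjusted p = 1.66e-05) and by 0.25 ± 0.06 in WMW-H versus control (adjusted p = 0.00268). Its difference between WMW-H and AOM/DSS libraries was 0.17 (limma adjusted p = 0.0232), and -0.02 under GC correction, and without any 1 of WMW-H replicate 1 or of AOM/DSS replicate 2 it was 0.14 to 0.15 (limma adjusted p = 0.0639 to 0.0716). That call also ended as TPM and with the total without other-tissue markers. Pold2 averaged 24.3 ± 1.45 FPKM in WMW-H, 23.1 ± 1.79 in AOM/DSS and 29.4 ± 1.47 in control libraries. It fell by 0.34 ± 0.05 (log2, SE) in AOM/DSS versus control (limma adjusted p = 2.51e-05) and by 0.26 ± 0.05 in WMW-H versus control (adjusted p = 0.000386). Between WMW-H and AOM/DSS libraries Pold2 differed by 0.08 on the deposited scale and by 0.38 under GC correction (limma adjusted p = 0.219 and 1.17e-05).

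In the 5 WMW-H libraries Pole stood at 3.66, 3.17, 2.60, 3.29 and 2.51 FPKM, in the 5 AOM/DSS libraries at 4.23, 3.93, 4.55, 3.45 and 3.93 and in the 5 control libraries at 2.88, 2.36, 3.02, 3.24 and 3.57. The AOM/DSS library at 3.45 FPKM lay within the range of both other groups. Pole rose by 0.33 ± 0.09 (log2, SE) in AOM/DSS versus control (limma adjusted p = 0.00539) and fell by 0.32 ± 0.09 in WMW-H versus AOM/DSS (adjusted p = 0.00657). The first call ended with quantile normalization and GC correction, and the second under GC correction in the fit with the replicate block. The level of Prim1 was 7.03, 6.505, 7.68, 8.72 and 5.67 FPKM in WMW-H libraries, 3.98, 5.28, 4.87, 4.12 and 4.05 in AOM/DSS libraries and 5.62, 5.51, 4.50, 4.89 and 5.36 in control libraries. All WMW-H libraries were above all others. Prim1, the catalytic subunit of primase, rose by 0.57 ± 0.09 (log2, SE) in WMW-H versus AOM/DSS (limma adjusted p = 4.93e-05) and by 0.39 ± 0.09 in WMW-H versus control (adjusted p = 0.002), the second of which ended under GC correction. Prim2, its partner, averaged 6.44 ± 0.758 FPKM in WMW-H, 5.42 ± 0.228 in AOM/DSS and 5.10 ± 0.463 in control libraries. It rose by 0.21 ± 0.07 (log2, SE) in WMW-H versus AOM/DSS (limma adjusted p = 0.0153) and by 0.28 ± 0.07 in WMW-H versus control (adjusted p = 0.00221), and both calls ended under GC correction. Pola2, the second subunit of polymerase alpha, averaged 12.5 ± 1.56 FPKM in WMW-H, 11.9 ± 1.10 in AOM/DSS and 13.5 ± 1.17 in control libraries, and without WMW-H replicate 3 it was called lower than in control in both AOM/DSS (-0.16, limma adjusted p = 0.0361) and WMW-H libraries (-0.17, adjusted p = 0.0477). Under GC correction Pola2 was called lower in AOM/DSS versus control (-0.33, limma adjusted p = 0.00209) and higher in WMW-H versus AOM/DSS (0.28, adjusted p = 0.0069), where the deposited value was 0.06. Pold1 averaged 6.93 ± 0.700 FPKM in WMW-H, 7.33 ± 0.441 in AOM/DSS and 8.19 ± 0.598 in control libraries. Pold1, the catalytic subunit of polymerase delta, fell by 0.22 ± 0.06 (log2, SE) in WMW-H versus control (limma adjusted p = 0.00702), a call that ended under GC correction (-0.09). Its difference between WMW-H and AOM/DSS libraries was -0.07 with limma adjusted p = 0.307, and under GC correction it was 0.26 with adjusted p = 0.00167.

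The sliding clamp and 1 subunit of its loader rose in WMW-H libraries against both other groups, and Rfc2 and Rfc3 of the loader fell against AOM/DSS libraries. Pcna read 69.4, 67.3, 63.9, 70.0 and 67.5 FPKM in the 5 WMW-H libraries, 44.8, 45.8, 47.0, 45.2 and 49.3 in the 5 AOM/DSS libraries and 51.6, 49.3, 51.7, 50.8 and 54.1 in the 5 control libraries. The 3 groups did not overlap, with WMW-H libraries highest and AOM/DSS libraries lowest. Pcna, the clamp that holds polymerases on DNA and the most abundant of the 41 transcripts, rose by 0.53 ± 0.03 (log2, SE) in WMW-H versus AOM/DSS (limma adjusted p = 3.91e-10) and by 0.39 ± 0.03 in WMW-H versus control (adjusted p = 3.34e-08). It fell by 0.15 ± 0.03 (log2, SE) in AOM/DSS versus control (limma adjusted p = 0.000871). All 3 calls held in every alternative, with the GC-corrected changes at 0.39, 0.20 and -0.19. The annotation names pseudogenes of this gene, Pcna-ps1 and Pcna-ps2, with which the counting could have split reads, so its level is uncertain to that extent.

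In the 5 WMW-H libraries Rfc3 stood at 10.5, 12.3, 10.3, 11.7 and 10.6 FPKM, in the 5 AOM/DSS libraries at 13.2, 14.1, 13.6, 12.7 and 13.6 and in the 5 control libraries at 9.20, 9.37, 11.0, 9.65 and 9.81. Every AOM/DSS library was above every library of the other groups. Rfc3, a small subunit of the clamp loader, rose by 0.42 ± 0.05 (log2, SE) in AOM/DSS versus control (limma adjusted p = 3.51e-06) and fell by 0.26 ± 0.05 in WMW-H versus AOM/DSS (adjusted p = 0.000453). Its call of 0.16 in WMW-H versus control ended with both rescalings and GC correction, and without any 1 of WMW-H replicates 2 or 4 or of control replicate 1 it was 0.12 to 0.14 (limma adjusted p = 0.0528 to 0.0628). The level of Rfc4 was 9.72, 9.75, 6.47, 9.21 and 8.58 FPKM in WMW-H libraries, 5.00, 4.23, 4.86, 5.35 and 5.08 in AOM/DSS libraries and 5.20, 6.12, 6.26, 6.35 and 5.09 in control libraries. The WMW-H libraries were above all others, with replicate 3 the lowest of them. Rfc4, another small subunit, was named for its size after its values were seen, and rose by 0.71 ± 0.09 (log2, SE) in WMW-H versus AOM/DSS (limma adjusted p = 3.54e-06) and by 0.51 ± 0.09 in WMW-H versus control (adjusted p = 0.00016). Without WMW-H replicate 3 these changes were 0.81 and 0.60. Rfc4 shares 186 exonic bases with the opposite-strand gene Eif4a2, which averaged 110.5 FPKM in WMW-H, 98.3 in AOM/DSS and 86.0 in control libraries, so part of its signal is uncertain. In all, 13 of the 41 genes overlap exons of another gene in the annotation. The longest opposite-strand overlaps beside Gse1 are 1909 bases of Gm10143 with Fen1, 952 of Lat2 with Rfc2 and 499 of Wsb2, at 51.7 FPKM in WMW-H, 53.3 in AOM/DSS and 47.6 in control libraries, with Rfc5. Ap4m1, which overlaps 247 bases of Mcm7, rose by 0.43 in AOM/DSS versus control (limma adjusted p = 9.48e-05), and the levels of these replication genes are uncertain in the same way. Rfc2 averaged 8.67 ± 0.331 FPKM in WMW-H, 10.5 ± 0.528 in AOM/DSS and 9.63 ± 0.357 in control libraries. It fell by 0.25 ± 0.04 (log2, SE) in WMW-H versus AOM/DSS (limma adjusted p = 7.08e-05), and its call in AOM/DSS versus control (0.11) turned sign with both rescalings and GC correction, and without any 1 of AOM/DSS replicates 1, 2 or 4 or of control replicates 2 or 5 it was 0.09 to 0.11 (limma adjusted p = 0.0556 to 0.0817). Rfc5 averaged 9.80 ± 0.461 FPKM in WMW-H, 10.5 ± 0.177 in AOM/DSS and 10.8 ± 0.614 in control libraries, and it fell by 0.13 ± 0.04 (log2, SE) in WMW-H versus control (limma adjusted p = 0.0141). Without WMW-H replicate 3 it was also called lower in WMW-H than in AOM/DSS libraries (-0.11, adjusted p = 0.0432). Rfc1, the large subunit, averaged 10.8 ± 1.48 FPKM in WMW-H, 9.24 ± 1.31 in AOM/DSS and 8.84 ± 0.873 in control libraries and its call of 0.26 in WMW-H versus control ended in 9 alternatives; without any 1 of WMW-H replicates 3 or 4 or of control replicate 5 it was 0.19 to 0.24 (limma adjusted p = 0.0537 to 0.0728).

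**Figure D3:**
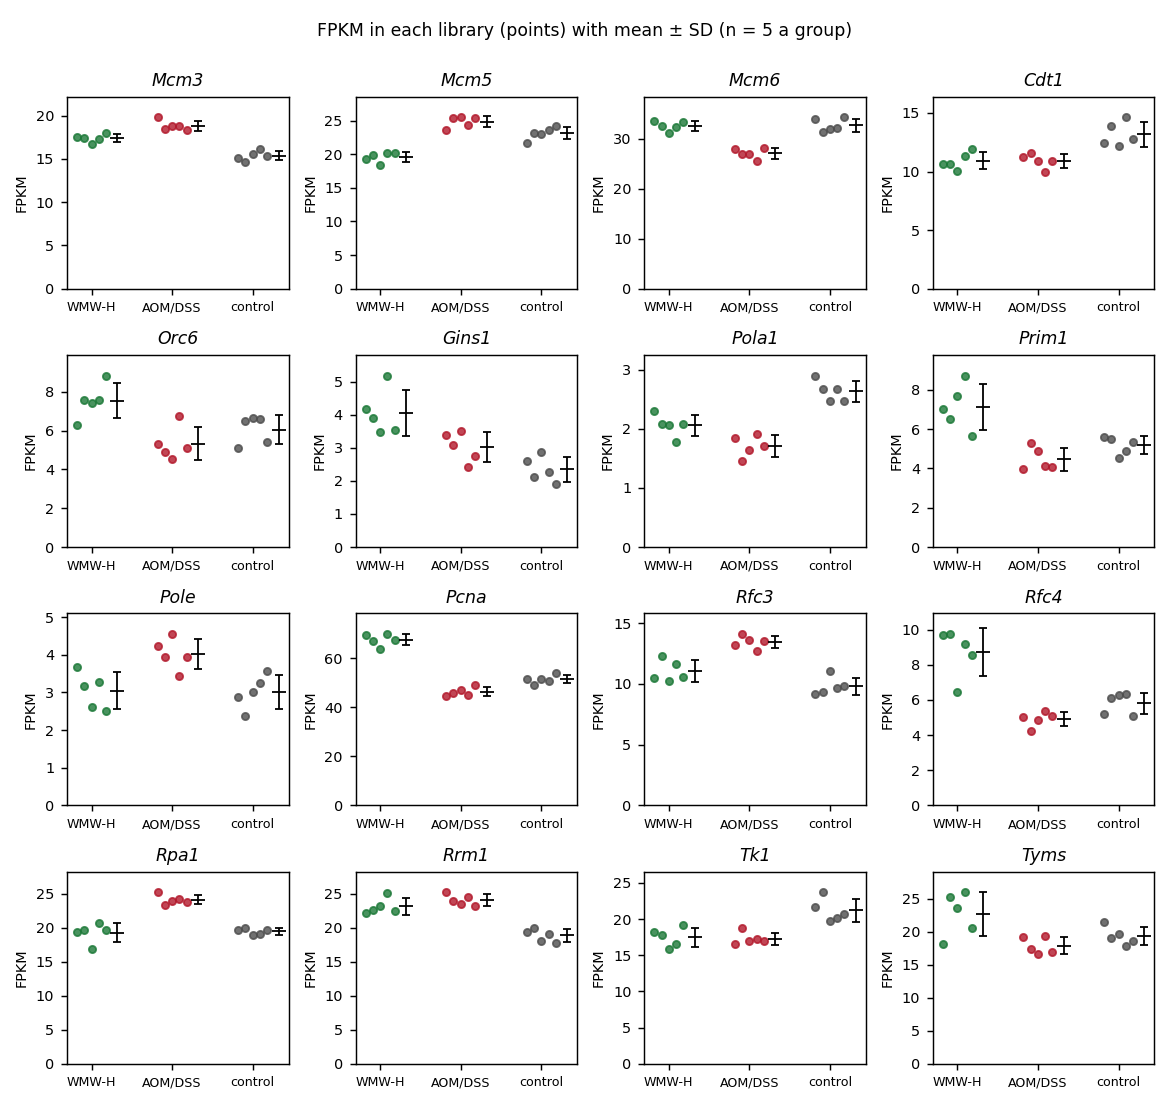
FPKM of 16 of the named replication genes in every library (vertical axes, linear and starting at 0), 1 point per library, for WMW-H, AOM/DSS and control libraries, with the mean and SD of each group (n = 5). Pcna separates all 3 groups, Mcm6 is lowest in AOM/DSS libraries and Rpa1 is highest there.

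Single-strand DNA behind the helicase is covered by replication protein A. Rpa1 read 19.4, 19.6, 16.9, 20.6 and 19.7 FPKM in the 5 WMW-H libraries, 25.2, 23.3, 23.9, 24.3 and 23.8 in the 5 AOM/DSS libraries and 19.6, 20.01, 18.9, 19.0 and 19.7 in the 5 control libraries. All AOM/DSS libraries were above all others, and WMW-H and control libraries overlapped. Rpa1, its large subunit, rose by 0.30 ± 0.04 (log2, SE) in AOM/DSS versus control (limma adjusted p = 1.32e-05) and fell by 0.31 ± 0.04 in WMW-H versus AOM/DSS (adjusted p = 7.22e-06), and both calls held in every alternative. Rpa2 averaged 9.03 ± 0.860 FPKM in WMW-H, 9.21 ± 0.323 in AOM/DSS and 10.4 ± 0.683 in control libraries. It fell by 0.16 ± 0.06 (log2, SE) in AOM/DSS versus control (limma adjusted p = 0.0254) and by 0.19 ± 0.06 in WMW-H versus control (adjusted p = 0.0115). The first of these calls ended on the TPM scale, and without any 1 of AOM/DSS replicate 5 or of control replicates 3 or 5 it was -0.14 (limma adjusted p = 0.056 to 0.0665). Rpa3, the small subunit, averaged 13.6 ± 2.43 FPKM in WMW-H, 12.4 ± 3.07 in AOM/DSS and 11.7 ± 0.749 in control libraries, and was called in no comparison. The subunits of this trimer thus differed in direction in AOM/DSS versus control.

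Fragments of the lagging strand are trimmed by Fen1 and sealed by Lig1. In the 5 WMW-H libraries Lig1 stood at 17.4, 19.2, 22.6, 17.3 and 16.0 FPKM, in the 5 AOM/DSS libraries at 20.6, 19.1, 18.7, 20.9 and 18.5 and in the 5 control libraries at 22.0, 22.8, 20.8, 21.3 and 22.7. WMW-H replicate 3, at 22.6 FPKM, lay among the control libraries and above its own group's other 4. Lig1 fell by 0.24 ± 0.07 (log2, SE) in WMW-H versus control (limma adjusted p = 0.00569), and without replicate 3 by 0.31 (adjusted p = 6.14e-05). Between WMW-H and AOM/DSS libraries it differed by -0.09 (limma adjusted p = 0.281), and without that library by -0.16 (adjusted p = 0.0124). Fen1 averaged 10.6 ± 0.805 FPKM in WMW-H, 10.3 ± 0.642 in AOM/DSS and 10.8 ± 0.816 in control libraries and was called in no comparison on the deposited scale. It was called lower in AOM/DSS versus control with size factors, quantile normalization and GC correction (-0.22 under the last, limma adjusted p = 0.00359), and higher in WMW-H versus AOM/DSS with quantile normalization and GC correction (0.23, adjusted p = 0.00275).

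Nucleotide supply was split. The subunits of ribonucleotide reductase, which makes deoxynucleotides, rose in AOM/DSS versus control, and Tk1, which salvages thymidine, fell. The level of Rrm1 was 22.1, 22.7, 23.2, 25.2 and 22.4 FPKM in WMW-H libraries, 25.2, 24.0, 23.6, 24.5 and 23.1 in AOM/DSS libraries and 19.4, 20.02, 18.1, 19.1 and 17.8 in control libraries. Every WMW-H and AOM/DSS library was above every control library. Rrm1, the large subunit, rose by 0.33 ± 0.04 (log2, SE) in AOM/DSS versus control (limma adjusted p = 1.73e-06) and by 0.28 ± 0.04 in WMW-H versus control (adjusted p = 1.93e-05), the second of which ended under GC correction (0.09, limma adjusted p = 0.0588). Rrm2, the small subunit that limits the enzyme's activity, averaged 12.6 ± 1.64 FPKM in WMW-H, 15.1 ± 1.02 in AOM/DSS and 11.3 ± 0.998 in control libraries. It rose by 0.38 ± 0.08 (log2, SE) in AOM/DSS versus control (limma adjusted p = 0.000408) and fell by 0.25 ± 0.08 in WMW-H versus AOM/DSS (adjusted p = 0.0106), and the second call ended with size factors and quantile normalization. Without WMW-H replicate 3, whose 9.92 FPKM was the lowest Rrm2 value of all libraries, Rrm2 was also called higher in WMW-H than in control libraries (0.21, limma adjusted p = 0.00888). Tk1 read 18.2, 17.9, 15.8, 16.6 and 19.1 FPKM in the 5 WMW-H libraries, 16.6, 18.7, 16.9, 17.2 and 16.9 in the 5 AOM/DSS libraries and 21.7, 23.7, 19.7, 20.2 and 20.7 in the 5 control libraries. The control libraries were above all others, and WMW-H and AOM/DSS libraries overlapped. Tk1 fell by 0.28 ± 0.06 (log2, SE) in AOM/DSS versus control (limma adjusted p = 0.00027) and by 0.26 ± 0.06 in WMW-H versus control (adjusted p = 0.000585). Between WMW-H and AOM/DSS libraries it differed by 0.02 on the deposited scale and by 0.26 under GC correction, where it was called (limma adjusted p = 0.000686).

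In the 5 WMW-H libraries Tyms stood at 18.1, 25.2, 23.6, 26.0 and 20.6 FPKM, in the 5 AOM/DSS libraries at 19.3, 17.4, 16.6, 19.3 and 17.0 and in the 5 control libraries at 21.5, 19.1, 19.7, 17.8 and 18.6. WMW-H replicate 1, at 18.1 FPKM, lay among the AOM/DSS and control libraries, and the other 4 WMW-H libraries were above all AOM/DSS libraries. Tyms, which makes thymidylate, rose by 0.32 ± 0.08 (log2, SE) in WMW-H versus AOM/DSS (limma adjusted p = 0.00266). Its call against control (0.21) ended in 14 alternatives; without any 1 of WMW-H replicates 2, 3 or 4 or of control replicates 2, 4 or 5 it was 0.16 to 0.21 (limma adjusted p = 0.0591 to 0.102). The annotation names a pseudogene, Tyms-ps, with which reads could have been split. Dut, which removes dUTP, averaged 17.9 ± 2.46 FPKM in WMW-H, 19.4 ± 1.88 in AOM/DSS and 17.2 ± 1.06 in control libraries and was called in no comparison on the deposited scale with all libraries.

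The regulators were E2f1, an activator of S-phase genes, and Uhrf1, which carries DNA methylation over to the new strand. The level of E2f1 was 3.31, 3.45, 2.93, 3.86 and 3.21 FPKM in WMW-H libraries, 3.82, 4.30, 3.66, 4.19 and 4.03 in AOM/DSS libraries and 3.596, 3.02, 3.42, 3.57 and 2.99 in control libraries. AOM/DSS libraries were above all control libraries, and WMW-H libraries overlapped both groups. E2f1 rose by 0.21 ± 0.07 (log2, SE) in AOM/DSS versus control (limma adjusted p = 0.00916) and fell by 0.20 ± 0.07 in WMW-H versus AOM/DSS (adjusted p = 0.0123). Both calls ended with size factors, quantile normalization and GC correction, under which the second change was 0.10. Uhrf1 averaged 14.1 ± 1.91 FPKM in WMW-H, 15.2 ± 1.18 in AOM/DSS and 17.4 ± 1.90 in control libraries. It fell by 0.29 ± 0.08 (log2, SE) in WMW-H versus control (limma adjusted p = 0.00594), a call that held in all alternatives.

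Base composition moved with the group differences. Over 12899 tested genes with a transcript in GENCODE release M21, the log2 change of WMW-H versus AOM/DSS fell with the G and C content of the transcript (Spearman's rho = -0.554 across genes, which share libraries and are not independent). It was 0.269 in AOM/DSS versus control and -0.307 in WMW-H versus control. Among the 41 replication genes rho was -0.471, -0.044 and -0.638 in WMW-H versus AOM/DSS, AOM/DSS versus control and WMW-H versus control. In WMW-H versus control, the 6 replication genes with 42 to 46% G and C (Mcm4, Pcna, Rfc4, Prim1, Orc6 and Rrm1) were all called higher, and of the 4 above 58% (Pold1, Pold2, Cdt1 and E2f1) 3 were called lower. All tested genes had medians of 0.185 and -0.114 in these bins. Over all contents, 35.4% of tested genes were called higher and 24.1% lower in this comparison. The shares called within each bin were not computed. Below 42% the order did not hold: of the 2 replication genes there 0 were called higher and 1, Pola1, lower, and the median of all tested genes was 0.041.

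**Figure D4:**
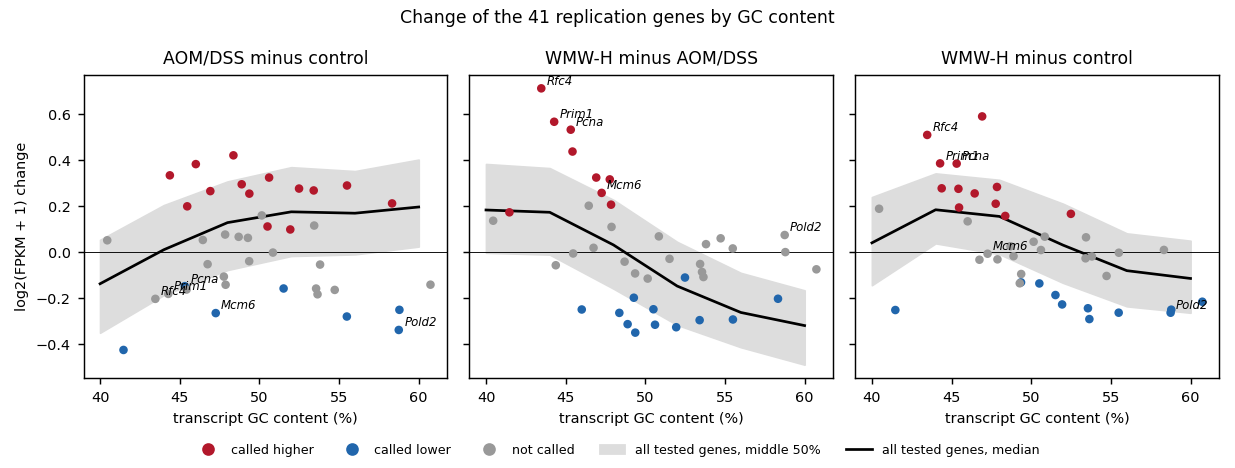
Log2 change (vertical axis, log2 of FPKM + 1) against G and C content of the transcript (horizontal axis, percent) for the 41 replication genes in 3 comparisons, over the median and middle 50% of all tested genes in 6 bins of content. Red points were called higher, blue lower and grey neither. In WMW-H versus AOM/DSS the bins' medians run from 0.184 at the lowest content to -0.319 at the highest.

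A correction for GC content, chosen after seeing the data, took from each library the smooth trend of its values on content. After it, 8 replication genes were called higher and 15 lower in AOM/DSS versus control (30.2% and 29% of all tested genes), 13 and 10 in WMW-H versus AOM/DSS (27.7% and 28.5%), and 4 and 13 in WMW-H versus control (26.4% and 26.3%). The median log2 change of the 41 genes was then -0.081, 0.082 and -0.049. Genes called under this correction and not before it were Fen1, Gins3, Lig1, Pola2, Pold1, Rfc5, Tyms and Uhrf1 (lower) in AOM/DSS versus control, Cdt1, Fen1, Gins2, Pola2, Pold1, Pold2 and Tk1 (higher) and Mcm4 and Rrm1 (lower) in WMW-H versus AOM/DSS, and Cdc45, Cdc6, Mcm6 and Rpa1 (lower) in WMW-H versus control. Whether the trend with content arose in the libraries or in the tissue was not tested.

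Other genes of the pathway, none of them among the 41, were also called in both directions. Of 41 further replication genes, 11 rose and 7 fell in AOM/DSS versus control, 14 rose and 10 fell in WMW-H versus AOM/DSS, and 15 rose and 6 fell in WMW-H versus control. In AOM/DSS versus control the counts were 6 and 10 with size factors, 5 and 13 with quantile normalization and 7 and 7 under GC correction. With these settings in turn the counts higher and lower were 17 and 6, 17 and 5, then 10 and 6 in WMW-H versus AOM/DSS, and in WMW-H versus control 12 and 6, 11 and 8, then 8 and 10. In AOM/DSS versus control the balance thus turned with size factors and quantile normalization, and in WMW-H versus control under GC correction. For reading these counts, the shares of all tested genes on the deposited scale were 45.5% higher and 20.6% lower in AOM/DSS versus control, 25.9% and 40.9% in WMW-H versus AOM/DSS, and 35.4% and 24.1% in WMW-H versus control, here and for the lists below. In the same order of comparisons they were 30.4% and 30.8%, 31.6% and 33.5%, and 29.6% and 29.5% with size factors. With quantile normalization they were 29.1% and 32.3%, 32.5% and 33%, and 28.1% and 30.5%. Under GC correction they were 30.2% and 29%, 27.7% and 28.5%, and 26.4% and 26.3%. The 4 with the smallest p in AOM/DSS versus control were Chtf8, of an alternative clamp loader, Nasp, a histone chaperone, Ssrp1, of a complex that opens chromatin, and Rnaseh2b, of an enzyme that removes ribonucleotides. Chtf8 averaged 45.8 ± 2.57 FPKM in WMW-H, 69.6 ± 2.36 in AOM/DSS and 53.98 ± 1.59 in control libraries and Ssrp1 52.1 ± 1.05 FPKM in WMW-H, 54.9 ± 1.121 in AOM/DSS and 46.5 ± 1.80 in control libraries, both called higher in AOM/DSS than in control libraries. Nasp averaged 18.1 ± 0.922 FPKM in WMW-H, 11.5 ± 0.476 in AOM/DSS and 15.5 ± 0.572 in control libraries and Rnaseh2b 8.81 ± 0.746 FPKM in WMW-H, 5.44 ± 0.866 in AOM/DSS and 8.89 ± 0.746 in control libraries, both called lower in AOM/DSS than in control and higher in WMW-H than in AOM/DSS libraries.

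Of 20 further genes of nucleotide supply, 9 rose and 5 fell in AOM/DSS versus control, 4 rose and 8 fell in WMW-H versus AOM/DSS, and 8 rose and 7 fell in WMW-H versus control. In AOM/DSS versus control the counts were 6 and 7 with size factors, 5 and 7 with quantile normalization and 4 and 7 under GC correction. With these settings in turn the counts higher and lower were 6 and 7, 6 and 7, then 6 and 4 in WMW-H versus AOM/DSS, and in WMW-H versus control 5 and 7, 5 and 7, then 5 and 8. The balance thus turned in all 3 settings in AOM/DSS versus control and in WMW-H versus control, and only under GC correction in WMW-H versus AOM/DSS. The shares of all tested genes moved between these settings too, as given above. Cmpk1, a kinase of pyrimidine nucleotides, averaged 153.2 ± 5.07 FPKM in WMW-H, 75.6 ± 5.91 in AOM/DSS and 120.1 ± 5.83 in control libraries. It fell by 0.66 ± 0.05 (log2, SE) in AOM/DSS versus control (limma adjusted p = 1.62e-09) and rose by 1.01 ± 0.05 in WMW-H versus AOM/DSS (adjusted p = 9.74e-12). Shmt2, a mitochondrial enzyme of one-carbon metabolism, averaged 16.7 ± 0.955 FPKM in WMW-H, 23.3 ± 0.823 in AOM/DSS and 15 ± 0.561 in control libraries, and Impdh2, of guanine nucleotide synthesis, 55.2 ± 3.17 FPKM in WMW-H, 70.3 ± 0.835 in AOM/DSS and 59.2 ± 0.817 in control libraries. Both were called higher in AOM/DSS than in control and lower in WMW-H than in AOM/DSS libraries. Samhd1, which degrades deoxynucleotides, averaged 33.7 ± 0.534 FPKM in WMW-H, 32.1 ± 1.82 in AOM/DSS and 42.5 ± 1.43 in control libraries and was called lower in AOM/DSS than in control libraries.

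Of 30 genes of the G1 to S switch around E2F and Rb, 9 rose and 7 fell in AOM/DSS versus control, 11 rose and 9 fell in WMW-H versus AOM/DSS, and 14 rose and 6 fell in WMW-H versus control. In AOM/DSS versus control the counts were 8 and 11 with size factors, 7 and 13 with quantile normalization and 7 and 12 under GC correction. With these settings in turn the counts higher and lower were 15 and 8, 15 and 8, then 13 and 7 in WMW-H versus AOM/DSS, and in WMW-H versus control 12 and 9, 11 and 9, then 11 and 10. Cdkn1c and Cdkn1a, inhibitors of cyclin-dependent kinases, went apart: Cdkn1c averaged 12.5 ± 1.119 FPKM in WMW-H, 14.2 ± 0.867 in AOM/DSS and 4.08 ± 0.613 in control libraries and Cdkn1a 106.7 ± 2.12 FPKM in WMW-H, 139.8 ± 1.89 in AOM/DSS and 173.1 ± 3.57 in control libraries. Cdk4, a kinase that starts the switch, averaged 69.1 ± 2.59 FPKM in WMW-H, 88.3 ± 2.88 in AOM/DSS and 59.4 ± 3.66 in control libraries. Its cyclin Ccnd1 averaged 34.9 ± 0.804 FPKM in WMW-H, 33.7 ± 1.82 in AOM/DSS and 23.3 ± 0.456 in control libraries. Cdkn1c, Cdk4 and Ccnd1 were called higher in AOM/DSS than in control libraries and Cdkn1a lower.

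Of 16 genes of mitosis, 5 rose and 3 fell in AOM/DSS versus control, 2 rose and 9 fell in WMW-H versus AOM/DSS, and 0 rose and 8 fell in WMW-H versus control. In AOM/DSS versus control the counts were 2 and 5 with size factors, 2 and 7 with quantile normalization and 1 and 5 under GC correction. With these settings in turn the counts higher and lower were 3 and 7, 4 and 6, then 0 and 11 in WMW-H versus AOM/DSS, and in WMW-H versus control 0 and 10, 0 and 10, then 0 and 12. Mki67, the usual marker of dividing cells, averaged 13.5 ± 0.984 FPKM in WMW-H, 16.9 ± 0.445 in AOM/DSS and 19.4 ± 0.539 in control libraries. It fell by 0.30 ± 0.04 (log2, SE) in WMW-H versus AOM/DSS (limma adjusted p = 8.3e-06) and by 0.19 ± 0.04 in AOM/DSS versus control (adjusted p = 0.00102). Aurka, a kinase of mitosis, averaged 10.2 ± 0.442 FPKM in WMW-H, 14.2 ± 0.942 in AOM/DSS and 11.0 ± 0.569 in control libraries. Plk1, another, averaged 19.9 ± 0.846 FPKM in WMW-H, 26.8 ± 1.14 in AOM/DSS and 22.9 ± 0.750 in control libraries. Kif11, a spindle motor, averaged 5.93 ± 0.625 FPKM in WMW-H, 5.03 ± 0.188 in AOM/DSS and 6.88 ± 0.522 in control libraries. Aurka and Plk1 were called higher in AOM/DSS than in control and lower in WMW-H than in AOM/DSS libraries, and Kif11 the other way in both. Under GC correction the calls of Plk1 against control (0.05, limma adjusted p = 0.297) and of Kif11 in WMW-H versus AOM/DSS (0.00, adjusted p = 0.992) ended. Of the 7 crypt markers tested, 6 rose and 1 fell in AOM/DSS versus control and 1 rose and 6 fell in WMW-H versus AOM/DSS, with a median log2 change of 1.385 in the first comparison, beside 0.052 for the 41 replication genes. Those with the smallest p were Rnf43, Smoc2, Axin2 and Lgr5, targets of Wnt signalling or markers of the stem cell, and Lgr5 averaged 3.599 ± 0.375 FPKM in WMW-H, 6.37 ± 0.387 in AOM/DSS and 1.82 ± 0.191 in control libraries. The crypt, mitosis and replication values come from the same libraries, and whether they move together was not tested.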

How the data were processed

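A single table of FPKM values was deposited by the authors, with no counts: fragments scaled by transcript length and library total, for genes named by Ensembl identifier and symbol. Per the labels' protocols, RNA with poly(A) tails was enriched and sequenced on an Illumina instrument after NEBNext Ultra library preparation. Tools named in the submitters' processing notes are StringTie 1.3.1, RSEM, HISAT2, Bowtie2 2.2.8 and fastp 0.18.0, with neither order nor settings. Genome build, annotation and strand setting are not given in the sources used here.

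The 12917 of 22063 genes that reached 1 FPKM in at least 5 libraries were transformed to log2(FPKM + 1). All 15 libraries entered 1 limma fit (version 3.58.1, R 4.3.3) with a mean per group and a trended prior. P-values were two-sided and adjusted by Benjamini-Hochberg over these genes, with a threshold of 0.05. Low values of 3328 genes with 1 annotated transcript gave the depth: 86.5% to 90.3% of them came within 0.1 of a whole fragment, where chance gives 20%. Genes with several transcripts were not examined for whole fragments. The values were deposited as FPKM, so no count model was used. G and C content and exon overlaps were taken from GENCODE release M21 by identifier (21973 of 22063 found). The limma fit, the correction for GC content and the reading of depth were tested on simulated data, and the other computations across genes were not. The alternatives tried are named in the closing section.

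The genes and lists were chosen with earlier results of these data known. By role, every library's value is given for the genes with the largest moderated statistic in AOM/DSS versus control and in WMW-H versus AOM/DSS and for those called against most of their role. Of each other list the 4 genes with the smallest p in AOM/DSS versus control are named. Rfc4 falls outside this rule.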

Additional observations from a re-analysis of the deposited data

Results flagged for a closer look

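Over the 41 genes and 3 groups, 123 groups of 5 libraries were examined for a library far from the other 4, and chance alone flags about 1 in 20 such groups. Dixon's ratio passed its critical value of 0.71 in 3 of them. Mcm10 stood at 6.231 FPKM in AOM/DSS replicate 3, against 4.985 to 5.264 in the other AOM/DSS libraries. Rfc1 stood at 11.525 FPKM in AOM/DSS replicate 5, against 8.308 to 9.127 in the others of that group. Gins3 stood at 1.84 FPKM in control replicate 1, against 1.06 to 1.238 in the other control libraries. None of the 3 was in WMW-H replicate 3, the library that differed most from its own group, and none of the 3 genes was called in AOM/DSS versus control.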

How the results depend on the processing

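Each result was recomputed under 26 alternatives: each of the 15 libraries left out, a pseudocount of 0.1, no filter on low values, TPM, size factors, quantile normalization, a total without other-tissue markers, the replicate block, only the 2 groups compared, moderation without a trend, and the correction for GC content without and with the block, which were chosen after seeing the data. Of 3198 values of single genes, 2821 kept their sign and side of the threshold, 116 lost the call, 113 gained it and 148 changed sign, 131 of these with no call on either side and 17 with a call.

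The 14 genes called higher in AOM/DSS versus control became 8 with size factors, 7 with quantile normalization, 8 with GC correction and 7 with that correction and the replicate block. The 7 called lower became 17, 18, 15 and 14 in these settings, and 12 with only the 2 groups compared in the fit. The 12 called higher in WMW-H versus control became 4 in both forms of GC correction. The median log2 change in AOM/DSS versus control moved from 0.052 to 0.098 as TPM, -0.069 with size factors, -0.116 with quantile normalization and -0.081 in both forms of GC correction. In WMW-H versus AOM/DSS it moved from -0.028 to -0.076 as TPM, 0.041, 0.072 and 0.082 in the other settings in the same order, and -0.071 with the total taken without other-tissue markers. In WMW-H versus control it moved from -0.002 to -0.053, -0.052, -0.057 and -0.049 with size factors, quantile normalization, that total and GC correction. The cause was not tested.

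Leaving out 1 library at a time gave 11 to 15 genes higher and 6 to 11 lower in AOM/DSS versus control, 8 to 10 and 11 to 13 in WMW-H versus AOM/DSS, and 9 to 12 and 11 to 12 in WMW-H versus control. The medians ran from -0.017 to 0.055, -0.042 to 0 and -0.016 to 0.027. The highest count of lower calls in AOM/DSS versus control, 11, came without WMW-H replicate 3, which is in neither group but shares the fit's estimate of spread.

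The 17 with a call are given here, and under GC correction they had the same value with the block, except Gins2, called without the block only. In AOM/DSS versus control they were Mcm5 (-0.0271 with size factors, -0.026 with quantile normalization, -0.0701 with GC correction) and Rfc2 (-0.0074, -0.0495 and -0.047). In WMW-H versus AOM/DSS they were, under GC correction, Mcm3 (0.0433), Pola1 (-0.0208), Pold1 (0.2608), Gins2 (0.1328) and E2f1 (0.1005). Same-numbered libraries did not deviate together (correlations -0.047 to 0.03 of their deviations from group means), so the numbers give no pairing. With the replicate block the counts were 14 and 7 in AOM/DSS versus control, 9 and 12 in WMW-H versus AOM/DSS, and 10 and 11 in WMW-H versus control.

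Gins3, with the lowest level of the 41 genes (1.26 ± 0.263 FPKM in WMW-H, 1.09 ± 0.242 in AOM/DSS and 1.31 ± 0.305 in control libraries), was not called on the deposited scale, and in AOM/DSS versus control it was called lower with quantile normalization and under GC correction (-0.26, limma adjusted p = 0.0416). The part of depth in this was not tested.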
